A study of Mus musculus with 6 samples.

Results

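The Par and Scribble polarity genes are 10 genes whose proteins divide the cell cortex into opposing domains, and their RNA was followed here in muscle stem cells. They were chosen with earlier results of these data known. The choice was by symbol, with no cut-off on a measured value: *Pard3*, *Pard6a*, *Pard6b*, *Pard6g*, *Prkci*, *Prkcz*, *Mark2*, *Scrib*, *Dlg1* and *Llgl1*. They are 10 of the 54115 genes that the sequenced transcripts could be assigned to. Enough reads for a test were found for 17152 genes, and 9 of the 10 members were among them. RNA-sequencing was performed on satellite cells, the resident stem cells of skeletal muscle, freshly sorted from uninjured hindlimb muscles of C57BL/6J mice. The methods of the study give the age of its mice, apart from an aged cohort, as 6 to 8 weeks. The sort kept cells positive for α7-INTEGRIN and CD34 and negative for CD31, CD11b, SCA-1 and CD45. There were 3 libraries of *Pax7*WT cells and 3 of *Pax7*KR cells, in which CRISPR-Cas9 editing of the germline replaced an acetylated lysine of the transcription factor PAX7 with arginine, so that this residue can no longer be acetylated. By the methods of the study, *Pax7*KR mice were homozygous F2 animals and the wild type controls were their littermates. The allele was carried in every cell and from conception. Nothing in the labels says how many mice gave each library, so the p-values measure the spread between these libraries.

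In a polarised cell PAR3 (*Pard3*) is a scaffold that joins PAR6 (*Pard6a*, *Pard6b*, *Pard6g*) and atypical protein kinase C (*Prkci*, *Prkcz*) into a complex on 1 side of the cortex. PAR1 kinases, of which MARK2 is a member, and the Scribble module of SCRIB, DLG1 and LLGL1 occupy the opposing side. The domains exclude each other because atypical protein kinase C phosphorylates LGL and PAR1 proteins off its own side, while PAR1 phosphorylates PAR3. In satellite cells, dystrophin binds MARK2, PAR3 gathers on the opposing side, and a division along this axis gives daughters of unequal fate. The comparison asks whether RNA of these genes differs between satellite cells whose PAX7 has or lacks the edited lysine. The study reported another acetylated lysine in PAX7, which the edit in these mice left in place.

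No member passed the test between genotypes: 0 of the 9 tested had an adjusted p under 0.1 by edgeR, against a background of 0 percent of all genes tested, and 0 had an unadjusted p under 0.05, against 4.68 percent. DESeq2 called 0 members and 0.175 percent of all genes tested, or 0.262 percent with an offset for transcript length. Without the filter on low counts edgeR called 0 members and 0.652 percent of all genes. The apical kinase *Prkci*, the scaffolds *Pard3*, *Scrib*, *Dlg1* and *Llgl1* and the kinase *Mark2* were all abundant, each at a mean of 76.7 to 102 counts per 1000000 (CPM) in either genotype. For these 6 genes the 95% intervals of the log2 fold change lay between -0.28 and 0.20. The PAR6 genes and *Prkcz* were low or barely detected. In some families a single paralog predominated, since *Prkci* held 99.4% of the atypical protein kinase C transcripts and *Llgl1* held 94.7% of the LGL transcripts. Among the main transcripts of 7 members, that of *Scrib* had shares that did not overlap between genotypes, as had the main transcripts of 9.4 percent of all genes examined in the same way.

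The libraries held 17822367 to 27908054 reads. *Pax7*, the edited gene, was at 1666, 1506 and 1480 CPM in *Pax7*WT and at 1410, 1460 and 1637 CPM in *Pax7*KR, and the groups overlapped (log2 fold change -0.05, SE 0.08, adjusted p = 0.998 by edgeR). A codon change does not alter a count, so this level does not check the labels. The 11 satellite cell markers, including *Pax7*, *Itga7*, *Vcam1* and *Calcr*, summed to 8605 to 9415 CPM in *Pax7*WT and to 9120 to 9432 CPM in *Pax7*KR, and all 11 were detected. Markers of cells that the gate removes were present at lower sums: 260 to 364 CPM over 8 endothelial genes and 8.04 to 10.5 CPM over 7 immune genes, of which *Cd3e* was at 0 in every library. The 6 fibro-adipogenic genes summed to 1333 to 1463 CPM, the 5 smooth muscle and pericyte genes to 203 to 293, the 5 Schwann and glial genes to 58.4 to 102 and the 6 myofibre genes to 35.3 to 50.2. Epithelial cells, in which these polarity genes are best known, left little trace: 5 epithelial genes summed to 0.656 to 1.298 CPM, with *Krt8* and *Cldn4* at 0 in every library. The sums of every marker list overlapped between genotypes. Within the lists, 7 of the 8 endothelial genes lay above 0 (median log2 fold change 0.33), with most of their sum from *Tek* at a mean of 213 CPM, and 0 of the 5 smooth muscle and pericyte genes did (median -0.19). The 7 immediate early genes, which respond to tissue dissociation, summed to 16345 CPM in *Pax7*WT replicate 2 and to 23198 to 30955 CPM in the other 5 libraries. In sorted bulk cells, fewer cells of a type and less RNA per cell cannot be told apart.

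In some of the families, paralogs had very different levels. The sequences before the starts of 3 of the members are shown so that an abundant gene can be set beside barely detected ones. They are the 250 bases before the RefSeq start of *Prkci*, which was abundant, of *Prkcz*, its paralog, which was at 4 to 10 reads a library, and of *Pard6b*, which was at 0 in 5 of 6 libraries (build GRCm38.p6, 5′ to 3′ on the strand of the gene, the most upstream RefSeq start). Capitals mark TAAT or ATTA, which are the same 4 letters on opposite strands and form the core that homeodomains, such as that of PAX7, bind.
*Prkci*, chr3:30995521-30995770, plus strand: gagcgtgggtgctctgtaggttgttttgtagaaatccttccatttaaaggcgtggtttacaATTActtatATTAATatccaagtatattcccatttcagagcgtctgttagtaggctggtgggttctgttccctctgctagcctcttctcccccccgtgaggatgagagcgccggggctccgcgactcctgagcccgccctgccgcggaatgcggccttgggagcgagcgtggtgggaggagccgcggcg
*Prkcz*, chr4:155361429-155361678, minus strand: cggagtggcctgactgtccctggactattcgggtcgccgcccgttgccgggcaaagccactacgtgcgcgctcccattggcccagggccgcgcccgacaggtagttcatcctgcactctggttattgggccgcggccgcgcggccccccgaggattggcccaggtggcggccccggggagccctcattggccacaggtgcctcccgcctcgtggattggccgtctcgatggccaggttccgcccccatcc
*Pard6b*, chr2:168080754-168081003, plus strand: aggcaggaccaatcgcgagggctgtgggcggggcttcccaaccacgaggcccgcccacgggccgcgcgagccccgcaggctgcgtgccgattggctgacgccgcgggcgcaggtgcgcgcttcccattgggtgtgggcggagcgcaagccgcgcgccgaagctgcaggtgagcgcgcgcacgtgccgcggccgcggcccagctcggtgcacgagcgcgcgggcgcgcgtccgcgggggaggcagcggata

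The *Prkci* sequence held 3 such cores, in which an ATTA and a TAAT overlap, and the other sequences shown held 0. RefSeq promoters of 300 bases, from 250 before to 50 after a start, were found for 8 of the 10 members, with 16 starts in all. TAAT or ATTA occurred in 7 of these 16 promoters and in 58 percent of all 32851 promoters of the same length. The 7 belonged to 4 of the 8 genes: *Dlg1*, *Llgl1*, *Pard6a* and *Prkci*. The abundant *Mark2* and *Pard3* had 0 at each of their starts, whereas *Pard6a*, at a low level, had a core at each of its starts. The palindrome TAATTA, which holds both cores, occurred in 0 of the 16 and in 5.29 percent of all. Promoters of 300 bases held a median of 7 CpG dinucleotides over all starts. The *Pard6b* promoter held 47 and that of *Prkci* 22, and those of the 3 *Prkcz* starts held 31, 14 and 13. The abundant members spanned a wide range, from 4 at each of the 2 most downstream starts of *Dlg1* to 42 at the upstream start of *Pard3*. A match to these letters is a description of the window and not a binding site.

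The order of the members by level was read from transcripts per 1000000 (TPM), which divide by transcript length and so allow genes to be compared. The values below are the mean and SD over all 6 libraries. *Mark2* was highest at 64.2 ± 4.08 TPM, above 86.4% of the genes tested. *Scrib* (44.4 ± 2.07), *Prkci* (41.1 ± 5.87), *Dlg1* (38.9 ± 3.42), *Pard3* (38.2 ± 3.65) and *Llgl1* (32.7 ± 1.38 TPM) followed, and each overlapped the next in this order. *Mark2* did not overlap *Scrib*, with a lowest library at 57.3 TPM against a highest of 47.7 TPM. A gap then separated *Pard6a* (7.62 ± 1.298), *Pard6g* (3.22 ± 0.680) and *Prkcz* (0.268 ± 0.236 TPM), none of which overlapped the next higher gene. *Pard6b* was at 0.118 TPM in *Pax7*WT replicate 2 and listed at 0 in the others, which overlapped the range of *Prkcz*. Thus the components of the complex were unequal in RNA, with the PAR6 genes well below *Pard3* and *Prkci*, and *Prkcz* below *Pard6a* and *Pard6g*.

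**Figure D1:**
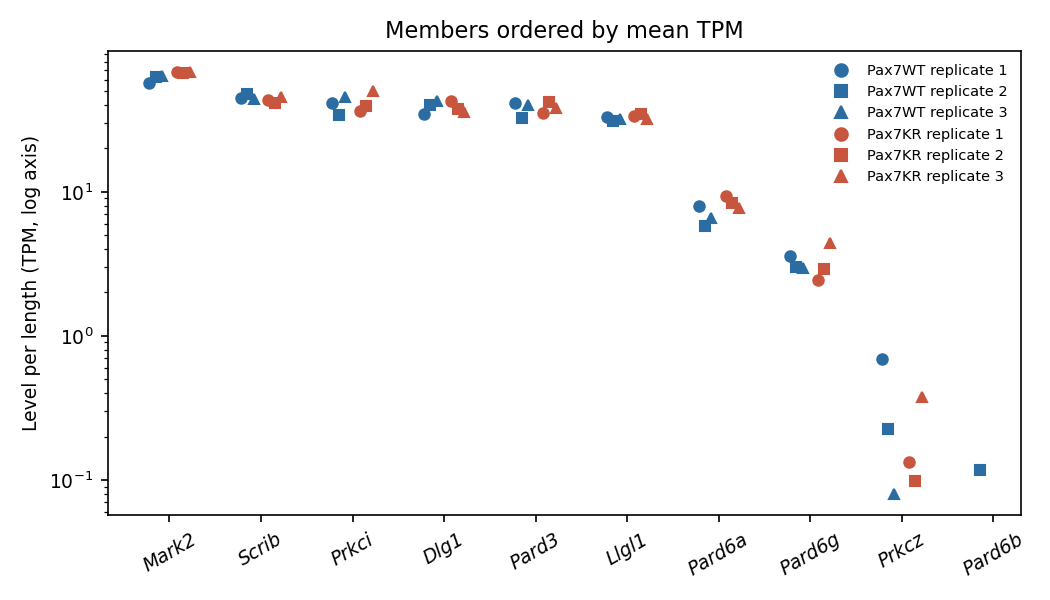
Level of each member per library in transcripts per 1000000 (TPM, log axis), ordered by mean, with blue for *Pax7*WT, red for *Pax7*KR and symbols for replicates. *Mark2* lies at 57.3 to 67.9 TPM, 5 members lie between 30.9 and 49.98 TPM, and the PAR6 genes and *Prkcz* lie below them, with *Pard6b* drawn in the 1 library where it was above 0.

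*Pard3* (chromosome 8, 127063893 to 127612286, GRCm38) encodes PAR3, the scaffold that anchors the apical complex. It was at 99.5, 90.7 and 96.2 CPM in *Pax7*WT and at 90.6, 98.1 and 96.55 CPM in *Pax7*KR. The groups covered nearly the same range, and the log2 fold change was -0.0063 (SE 0.06, 95% interval -0.14 to 0.13, adjusted p = 0.998 by edgeR). Its paralog *Pard3b*, which shares the scaffold architecture, was lower, at 12.7 against 38.2 TPM, so *Pard3* made up 75.1% of the summed Par3 TPM, with 73.7 to 75.9% in *Pax7*WT and 71.6 to 78.3% in *Pax7*KR.

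PAR6 links atypical protein kinase C to PAR3 and to the GTPase CDC42. *Pard6a* (chromosome 8, 105701148 to 105703496) was at 3.16, 2.60 and 3.46 CPM in *Pax7*WT and at 3.455, 3.98 and 4.26 CPM in *Pax7*KR. The highest wild type library lay just above the lowest *Pax7*KR library, so the groups overlapped, and with only 46 to 95 reads a library the interval was wide (log2 fold change 0.34, SE 0.24, -0.19 to 0.87, adjusted p = 0.992 by edgeR). *Pard6g* (chromosome 18, 80046890 to 80119639) was at 6.47, 5.53 and 5.41 CPM in *Pax7*WT and at 4.155, 4.98 and 7.80 CPM in *Pax7*KR. Here the *Pax7*KR libraries lay on both sides of the wild type range, and the log2 fold change was -0.04 (SE 0.24, -0.56 to 0.47).

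*Pard6b* (chromosome 2, 168081004 to 168101203) had 4 reads in *Pax7*WT replicate 2 and 0 in the other 5 libraries. It was too low to be tested, and 0 reads allow a level of up to 0.11 to 0.146 CPM in those libraries. On the TPM scale *Pard6a* made up 70.0% of the PAR6 family and *Pard6g* 29.8%, with *Pard6a* ranging from 64.8 to 69.1% in *Pax7*WT and from 63.6 to 79.4% in *Pax7*KR. By reads the order was the opposite, with *Pard6g* above *Pard6a* in every library. The TPM order thus rests on the average effective length, 624 to 907 bases for *Pard6a* against 2894 to 2915 for *Pard6g*. Protein-coding transcripts held 45.0 to 74.4% of the *Pard6a* TPM.

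*Prkci* (chromosome 3, 30995747 to 31052959) encodes the iota form of atypical protein kinase C, the enzyme of the complex. It was at 96.3, 83.9 and 105.8 CPM in *Pax7*WT and at 86.5, 86.2 and 93.3 CPM in *Pax7*KR. The *Pax7*KR libraries sat inside the wild type range, which was the widest among the 6 abundant members (SD 10.98 CPM, n = 3), and the log2 fold change was -0.10 (SE 0.08, -0.28 to 0.07, adjusted p = 0.992 by edgeR). *Prkcz* (chromosome 4, 155260129 to 155361361), which encodes the zeta form, had 9, 10 and 4 reads in *Pax7*WT and 7, 6 and 5 reads in *Pax7*KR.

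Those counts leave the *Prkcz* difference open over a wide span (log2 fold change -0.43, SE 0.75, -2.06 to 1.19), and they are uncertain in a further way. Of its 31-base words, 18.3% also occur in other genes, chiefly *Prkcz2*, so reads could be split between them. For every other member this share was at most 1.67%. *Prkci* held 98.3 to 99.8% of the atypical protein kinase C TPM in *Pax7*WT and 99.3 to 99.8% in *Pax7*KR.

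*Mark2* (chromosome 19, 7275396 to 7341860, minus strand) encodes the PAR1 kinase that binds dystrophin in satellite cells. It was at 98.9, 97.3 and 93.7 CPM in *Pax7*WT and at 101.8, 103.4 and 99.7 CPM in *Pax7*KR. All *Pax7*KR libraries lay above all wild type libraries, and *Mark2* was the only member with groups that did not overlap. Such a separation in the same direction was found for 5.14 percent of all genes tested, and in either direction for 10.3 percent, so 1 of 9 members is near the background. The same order was seen per length, at 57.3 to 63.6 TPM in *Pax7*WT and 66.3 to 67.9 TPM in *Pax7*KR. TPM come from the same reads and were not scaled further between libraries. On log2 TPM the median shift over all genes from the main fit was 0.0624 toward *Pax7*KR. The difference was small, with a ratio of 1.05 (95% interval 0.963 to 1.15), a log2 fold change of 0.07 (SE 0.06) and an adjusted p = 0.998 by edgeR. *Mark2* accounted for 45.3% of the TPM of the 4 *Mark* genes, *Mark3* for 37.8%, *Mark4* for 11.3% and *Mark1* for 5.57%.

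*Scrib* (chromosome 15, 76047158 to 76069784, minus strand) encodes the large scaffold that gives the basal module its name. It was at 84.8, 93.9 and 83.3 CPM in *Pax7*WT and at 89.5, 88.5 and 92.4 CPM in *Pax7*KR. The groups overlapped (log2 fold change 0.05, SE 0.07, -0.10 to 0.19, adjusted p = 0.998 by edgeR). *Erbin*, which belongs to the same family of proteins with leucine-rich repeats and PDZ domains, was the more abundant, at 68.1 against 44.4 TPM, and took 55.1% of that family to 36.1% for *Scrib*.

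*Dlg1* (chromosome 16, 31663443 to 31875129) encodes a membrane-associated guanylate kinase scaffold. In CPM, though not in TPM, it varied least of all members, with a coefficient of variation of 2.95% over the 6 libraries. Its level was 79.8, 86.3 and 84.8 CPM in *Pax7*WT and 83.4, 80.6 and 83.5 CPM in *Pax7*KR. The groups overlapped (log2 fold change -0.02, SE 0.06, -0.15 to 0.12). Among the DLG genes *Dlg1* held 33.1% of the TPM, *Dlg4* 27.6%, *Dlg3* 18.2%, *Dlg5* 17.3% and *Dlg2* 3.79%. *Llgl1* (chromosome 11, 60699723 to 60714186) encodes LGL1, a substrate of atypical protein kinase C. It was at 78.6, 75.4 and 76.0 CPM in *Pax7*WT and at 74.0, 83.1 and 76.9 CPM in *Pax7*KR, where the *Pax7*KR libraries enclosed the wild type ones (log2 fold change 0.02, SE 0.07, -0.12 to 0.17).

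**Figure D2:**
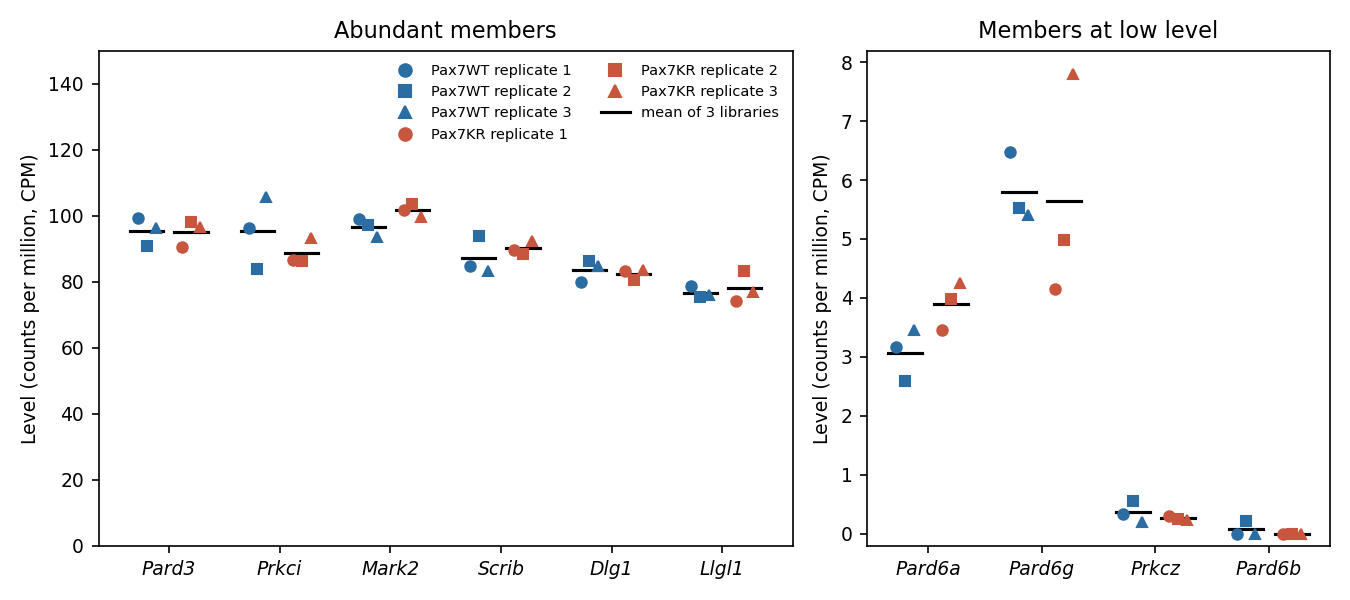
Level of each member per library in counts per 1000000 (CPM, linear axes from 0), with blue for *Pax7*WT, red for *Pax7*KR, symbols for replicates and a bar at the mean of 3 libraries. Only for *Mark2* do all *Pax7*KR libraries, 99.7 to 103.4 CPM, lie above all *Pax7*WT libraries, 93.7 to 98.9 CPM.

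Over the 9 tested members, 4 had a log2 fold change above 0 and 5 below, where 49 percent of all genes tested were above 0. Their median was -0.0063, beside -0.0037 for all genes tested. A log2 fold change within 0.1 of 0 was found for 6 of the 9 members and for 45.8 percent of all genes, and within 0.25 for 7 of the 9 and for 72.7 percent of all. The genes outside 0.25 were *Pard6a* and *Prkcz*, which had few reads. The shares over all genes include those at low levels, where fold changes spread more widely, and were not matched to the level of the members.

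**Figure D3:**
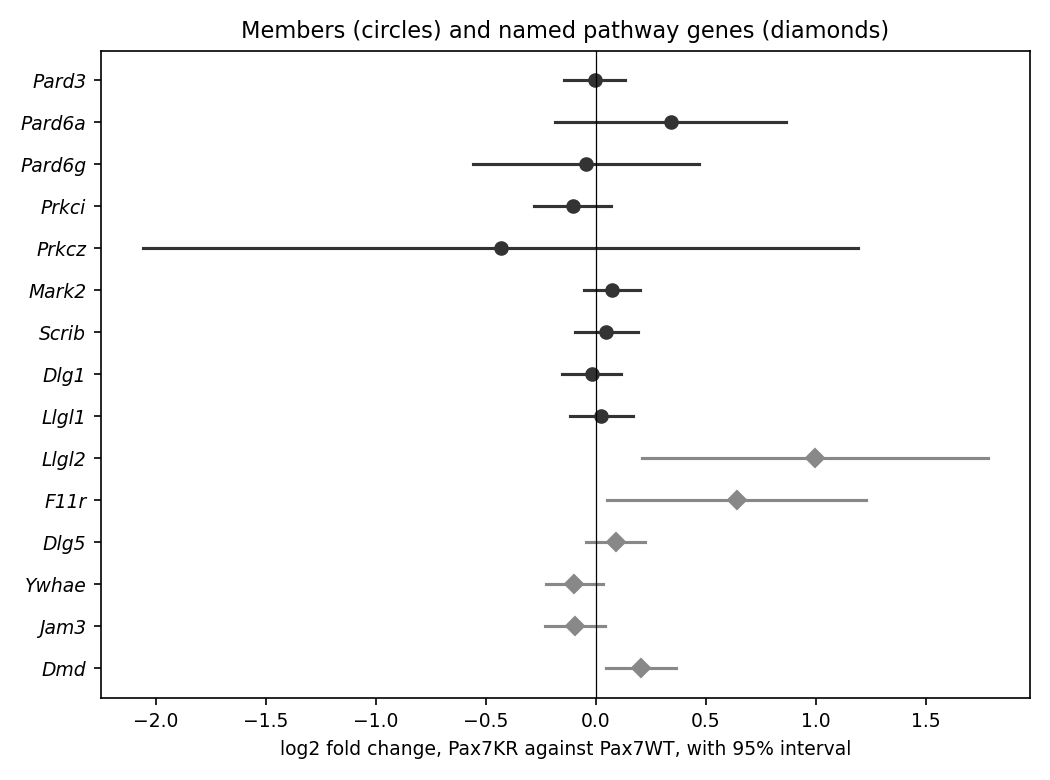
Log2 fold change of *Pax7*KR against *Pax7*WT with its 95% interval for the 9 tested members (dark circles) and 6 named pathway genes (grey diamonds). Every interval of a member includes 0, and that of *Prkcz* reaches from -2.06 to 1.19.

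The transcripts of each gene were compared next, since a gene's total can hide a change of isoform. Shares are of the gene's TPM and rest on salmon's division of reads among overlapping isoforms, which is an estimate. The shares of the main *Scrib* transcript did not overlap between genotypes, and 1 of 7 members is to be read against 9.4 percent of the 11131 genes with more than 1 transcript and 20 or more reads in every library. *Scrib-202*, a protein-coding transcript of 36 exons and 5440 bases, held 46.1, 47.3 and 45.0% in *Pax7*WT and 55.8, 65.3 and 50.9% in *Pax7*KR. The 3 *Pax7*KR libraries were all higher, with means of 46.1% ± 1.13 and 57.4% ± 7.33 (SD, n = 3). An exact two-sided permutation test gave p = 0.1, the smallest that 3 against 3 can give, and 0.7 after adjustment over the 7 genes tested, so no share could have passed an adjusted cut-off of 0.1 in this design.

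The share of reads went the same way, at 73.5, 73.9 and 71.0% in *Pax7*WT against 79.0, 89.3 and 75.05% in *Pax7*KR. It and the values below come from the same division of reads by salmon, so they are not independent of the TPM shares. *Scrib-207*, a transcript of 835 bases annotated as retaining an intron, was at 20.05, 19.8 and 25.6% in *Pax7*WT and at 17.8, 13.5 and 18.9% in *Pax7*KR, where no library reached the wild type range. The share over all genes was computed for main transcripts only, so this separation has no background. *Scrib-204*, annotated as processed and non-coding, overlapped between genotypes at 8.51 to 17.0%. The summed share of all protein-coding *Scrib* transcripts also overlapped, at 64.2, 52.4 and 51.9% in *Pax7*WT and at 60.9, 65.3 and 55.0% in *Pax7*KR. The average effective length of *Scrib* RNA was 3046, 3134 and 3045 bases in *Pax7*WT and 3515, 3600 and 3332 bases in *Pax7*KR, which did not overlap. The same was found for 9.56 percent of all genes tested. When this length entered the fit as an offset, the log2 fold change of *Scrib* was -0.13 in place of 0.05, and it was not called under either.

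The main transcripts of the other 6 members examined overlapped between genotypes. *Prkci-201* (18 exons, protein-coding) held 82.0, 88.3 and 82.0% in *Pax7*WT and 91.0, 82.4 and 64.9% in *Pax7*KR, with the retained-intron transcript *Prkci-204* at 9.05 to 18.0%. *Dlg1-202* held 59.6% ± 6.42 and *Dlg1-201* 15.9% ± 1.71 over the 6 libraries. *Llgl1-202* held 64.2% ± 5.78 and *Llgl1-201*, which differs from it by 1 exon in number, 32.1% ± 5.76.

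*Mark2-202* (18 exons) held 41.6% ± 4.62, and *Mark2-217* and *Mark2-218*, both annotated as retaining an intron, held 13.4% and 10.4%, while *Mark2-219*, a coding transcript of 4 exons, held 13.0%. *Pard3* was divided among *Pard3-201* (26.9%), *Pard3-209* (25.2%), *Pard3-226* (13.7%) and *Pard3-219* (10.03%), all protein-coding. *Pard3-201* was at 21.5, 27.2 and 19.3% in *Pax7*WT and at 38.9, 29.7 and 24.8% in *Pax7*KR, which overlapped (exact permutation p = 0.2, adjusted 0.7). *Pard3-209* was at 27.1, 29.97 and 21.02% in *Pax7*WT and at 22.8, 20.5 and 29.7% in *Pax7*KR. The division of *Pard6a* was not stable, as *Pard6a-205* went from 0% in 4 libraries to 72.2% in *Pax7*KR replicate 3. Its most abundant transcript by mean, *Pard6a-206*, annotated as processed and non-coding, spanned 7.18 to 43.0%.

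**Figure D4:**
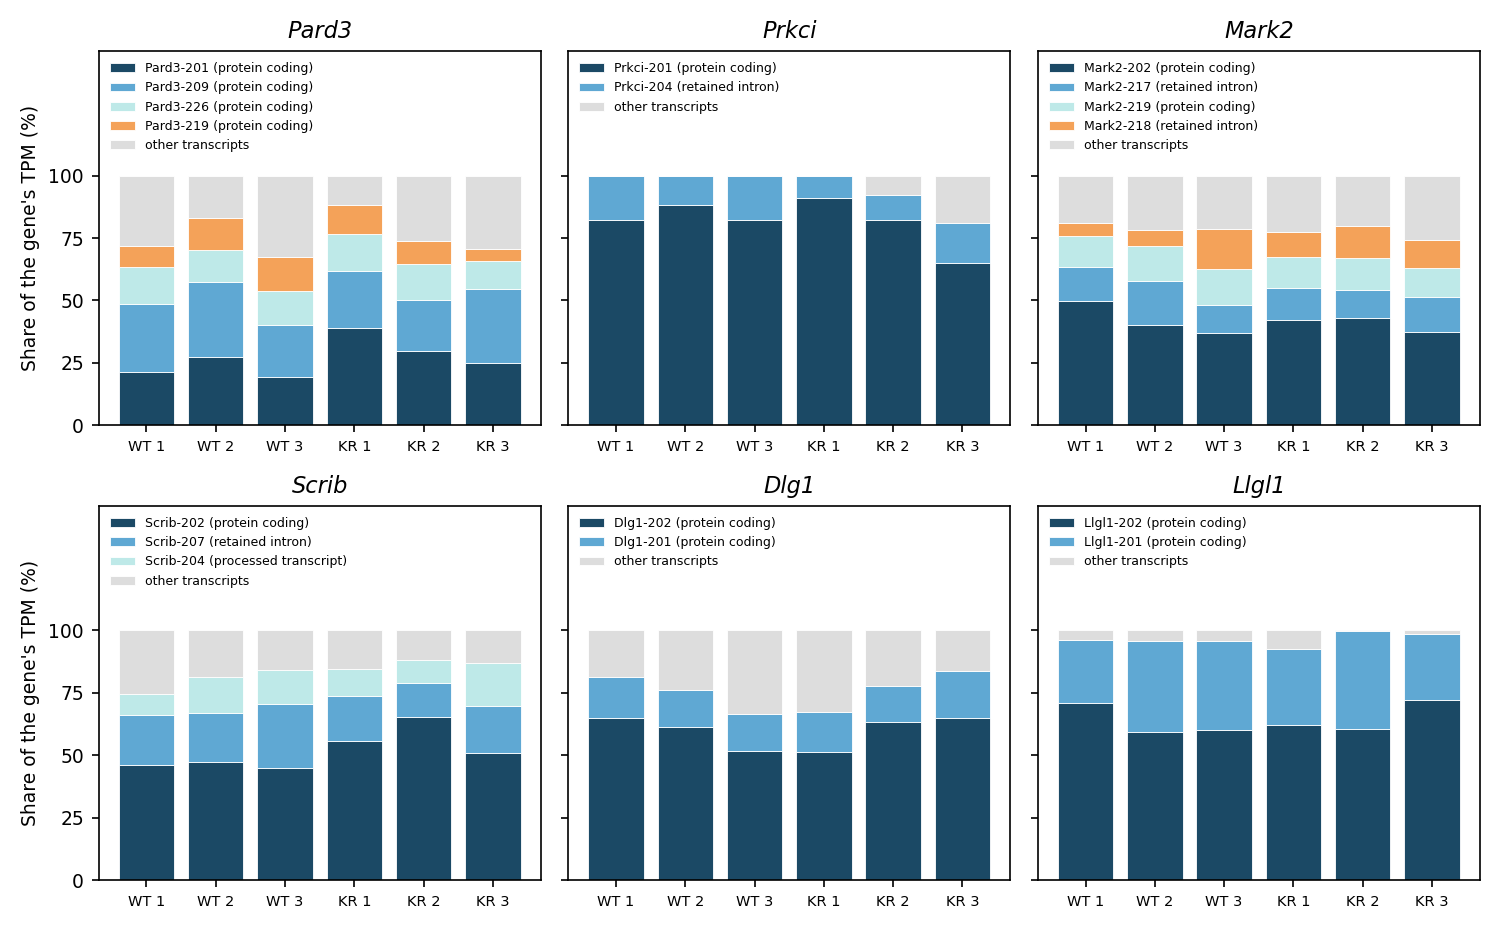
Share of each gene's TPM (percent) held by its transcripts with a mean share of 10% or more, as stacked bars for *Pax7*WT (WT) and *Pax7*KR (KR) libraries 1 to 3, with grey for all other transcripts. *Scrib-202* holds 45.0 to 47.3% in *Pax7*WT and 50.9 to 65.3% in *Pax7*KR, and the main transcripts of the other 5 genes overlap between genotypes.

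The surrounding pathway was described with 5 lists of 54 genes in all, of which 49 were tested. By edgeR 0 of the 49 were called, 25 lay above 0 and 24 below, their median log2 fold change was 0.0030, and 35 were within 0.1 of 0. An unadjusted p under 0.05 by edgeR was found for 3 of the 49, all higher in *Pax7*KR. Of all genes tested, 4.68 percent had such a p in either direction, and 2.26 percent had it and were higher. The 20 partners of PAR proteins (small GTPases, LKB1, 14-3-3, MARK and JAM genes) were all tested, with 7 above 0 and 13 below. Of the 8 Scribble partners, 7 were tested, with 4 above and 3 below. Of the 10 genes of the Crumbs complex, the apical partner of the PAR complex in epithelia, 6 were tested, and *Crb1*, *Crb2*, *Crb3* and *Lin7b* were too low. The 11 spindle orientation and fate genes had 8 above and 3 below, and the 5 satellite cell polarity genes 3 above and 2 below.

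*Llgl2*, the paralog of *Llgl1*, was at 1.36, 0.960 and 0.975 CPM in *Pax7*WT and at 1.49, 2.72 and 2.41 CPM in *Pax7*KR. All *Pax7*KR libraries were higher, on 17 to 65 reads (log2 fold change 0.99, SE 0.36, 0.21 to 1.78, adjusted p = 0.992 by edgeR). The average effective length of its RNA ran from 588 to 2623 bases, and with that length as an offset the log2 fold change was 0.35 in edgeR and 0.31 in DESeq2, with 0.44 on the TPM scale. It made up 1.83 to 10.1% of the LGL TPM, so *Llgl1* predominated in both genotypes. *F11r*, which encodes the junctional adhesion molecule JAM-A that binds PAR3, was at 2.43, 2.88 and 2.63 CPM in *Pax7*WT and at 3.63, 5.49 and 3.22 CPM in *Pax7*KR (log2 fold change 0.64, SE 0.27, 0.05 to 1.23, adjusted p = 0.992 by edgeR). Its groups did not overlap either, on 51 to 131 reads a library. Without *Pax7*KR replicate 2, its highest library, the log2 fold change was 0.37. That library also had the highest endothelial marker sum, 364 CPM against 260 to 330 CPM in the others. Most of this sum came from *Tek*, at a mean of 213 CPM over the libraries. The part of endothelial cells in the *F11r* difference was not tested.

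The third was *Dmd*, which encodes dystrophin. Its groups overlapped, so it was outside the rule for named genes. It was added after its values were seen, for its unadjusted p under 0.05 by edgeR. It was at 362, 348 and 403 CPM in *Pax7*WT and at 423, 401 and 458 CPM in *Pax7*KR (log2 fold change 0.20, SE 0.07, 0.04 to 0.36, adjusted p = 0.992 by edgeR). The highest wild type library lay just above the lowest *Pax7*KR library. The average effective length of its RNA was 4646 to 5003 bases in *Pax7*WT and 4012 to 4574 bases in *Pax7*KR. With DESeq2 and that length as an offset, the log2 fold change was 0.37 and the adjusted p 0.0856, under the cut-off of 0.1, whereas edgeR with the same offset gave 0.37 and an adjusted p of 0.762. Over all the alternatives run for *Dmd* the adjusted p lay between 0.0856 and 1.00.

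Groups of small difference that did not overlap were found for 3 more genes. The DLG family scaffold *Dlg5* was at 74.5, 73.3 and 72.7 CPM in *Pax7*WT and at 79.1, 80.2 and 75.2 CPM in *Pax7*KR (log2 fold change 0.09, SE 0.06). *Ywhae*, a 14-3-3 gene whose family binds phosphorylated PAR3, was at 389, 372 and 366 CPM in *Pax7*WT and at 361, 354 and 339 CPM in *Pax7*KR (log2 fold change -0.10, SE 0.06). *Jam3*, another junctional adhesion molecule, was at 75.9, 76.0 and 80.4 CPM in *Pax7*WT and at 74.0, 70.3 and 73.1 CPM in *Pax7*KR (log2 fold change -0.10, SE 0.06). The unadjusted p of each was above 0.05. Together with *Llgl2* and *F11r*, 3 of the 49 genes were separated upward and 2 downward, where 5.14 and 5.19 percent of all genes tested were.

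**Figure D5:**
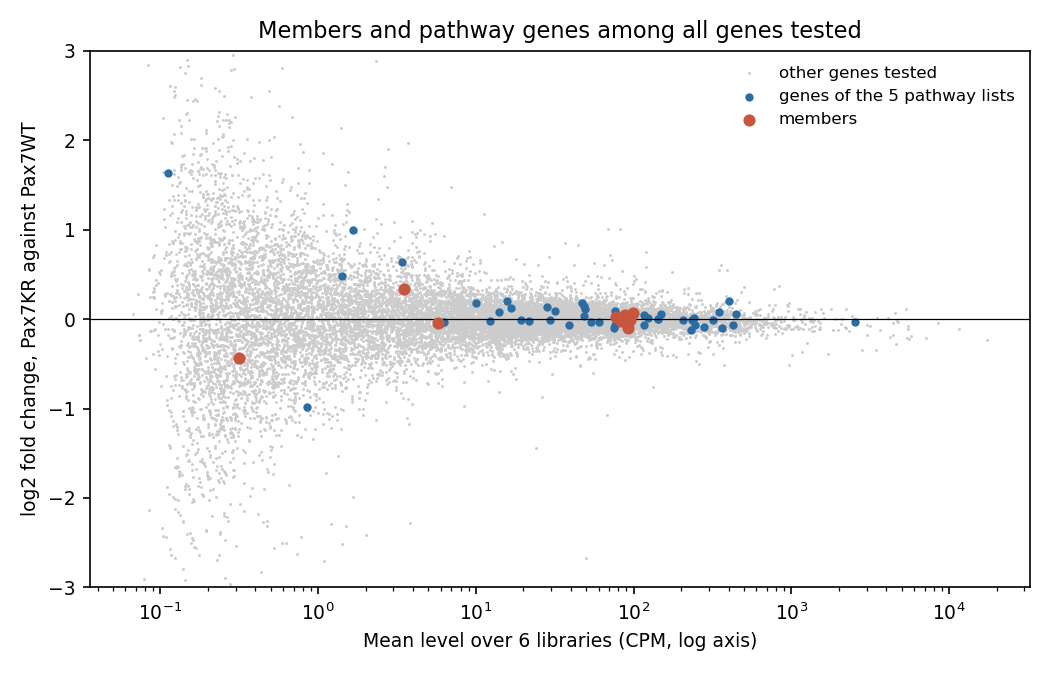
Log2 fold change of *Pax7*KR against *Pax7*WT and mean level over 6 libraries (CPM, log axis) for the members (red), the genes of the 5 pathway lists (blue) and the other genes tested (grey). The 6 abundant members lie within the grey band near 0 and the spread widens at low levels. The 67 genes beyond a log2 fold change of 3 in either direction, none of them a member or pathway gene, are not drawn.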

How the data were processed

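RNA-sequencing libraries of 3 *Pax7*WT and 3 *Pax7*KR samples were grouped by their labels, and none was left out. Libraries were made from 15 ng of RNA with a kit that keeps the strand. The authors quantified transcripts with salmon (version 1.3.0) against GENCODE transcripts with the GRCm38 genome as decoy and deposited, per transcript, estimated counts, which are not normalized, and TPM. Effective lengths, also deposited, served only for average transcript lengths. The authors' deposited comparison (tximport and DESeq2, version 1.28.1: log2 fold changes and p-values) was not used.

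Estimated counts were summed per gene and rounded. Of 140992 transcripts, 139791 were found in GENCODE vM21, also on GRCm38, which gave the coordinates, and 1201 were not. The unmatched held 0.592 to 0.634% of reads and were left out. Pals1 was matched as Mpp5. A gene was tested if at least 2 libraries held 5 reads of it, by edgeR (version 4.0.16; TMM, robust quasi-likelihood, genotype alone), adjusting p by Benjamini-Hochberg over all 17152 genes and a cut-off of 0.1. Intervals are 95%. The level allowed by 0 reads is 3 counts and covers counting error only. The edgeR fit, tested on simulated data of this comparison (16594 genes), recovered 80.5% of 200 genes changed by log2 1, with 23 false calls. DESeq2 with the length offset recovered 82.0%, with 73 false calls. The simulated counts held no effect of transcript length, so these 73 do not measure the error of the offset in the real data. The changed genes were drawn from those with 200 or more reads summed over the libraries. Recovery at lower levels or of smaller changes was not tested. Alternatives used DESeq2 (version 1.42.0) and limma (version 3.58.1) in R (version 4.3.3). Transcript shares were tested with scipy (version 1.17.1) for each member with 20 or more reads in every library and more than 1 transcript.

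Members and lists were chosen with earlier results of these data known. Named genes are the 10 members, *Pax7*, and up to 3 pathway genes per direction with the smallest p among those whose groups do not overlap. *Dmd* was added to these for an unadjusted p under 0.05 by edgeR. Transcripts are named from a mean share of 10%. Family shares, average lengths, their backgrounds and the promoter search were added after the data were seen. Promoters come from RefSeq (GRCm38.p6), and protein sequences were not used here.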

Additional observations from a re-analysis of the deposited data

How the results depend on the processing

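Across 143 values of the tested members under the alternatives, 128 kept their direction, 15 reversed, and 0 were called (lowest adjusted p 0.783). With library totals alone *Pard3* was at 0.024 and *Dlg1* at 0.0104 (log2 fold change). With an offset for transcript length, *Scrib* was at -0.13 in edgeR and in DESeq2, *Dlg5* at -0.0311 and -0.0307, and *Prkci* at 0.0015 in DESeq2. With limma on log2(TPM + 0.5), *Pard3* was at 0.0264, *Prkci* at 0.0569, *Scrib* at -0.0652, *Pax7* at 0.0053 and the median of the members at 0.0264. Over all genes, the median shift of the log2 fold change from the main fit was 0.0624 with limma and 0.0303 with library totals alone. The values above 0 given here for *Pard3*, *Prkci*, *Dlg1*, *Pax7* and the median under these 2 settings were smaller than those shifts. Leaving out 1 library in turn gave -0.0415 to 0.0265 for *Pard3*, -0.35 to 0.13 for *Pard6g*, -0.053 to 0.0030 for *Dlg1*, -0.0231 to 0.0605 for *Llgl1* and -0.11 to 0.0087 for *Pax7*. The median of the members was then -0.0164 to 0.0506. It was 0.0245 when *Pax7*WT replicate 1 was left out and highest when *Pax7*KR replicate 1 was, and 4 to 6 members were higher. From 1 (without *Pax7*KR replicate 2) to 5 (without *Pax7*WT replicate 2) pathway genes had an unadjusted p under 0.05.

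The count of genes called rose from 0 to 30 with DESeq2, 45 with DESeq2 and the length offset, and 157 with no filter. It was 1 to 32 with a library left out, with 32 without *Pax7*KR replicate 3, and 803 at an unadjusted p under 0.05. Samples with the same number did not deviate together (r = 0.0067, 0.0264 and -0.0392), and a fit with the replicate number as a block called 13 genes and 0 members. As a share of reads in place of TPM, the main transcript held 97.2% for *Prkci*, 67.0% for *Mark2*, 77.0% for *Scrib* and 74.97% for *Dlg1*, since short transcripts count less. Where no value is given for the cause, the cause was not tested. At the depth of *Pard6b* and *Prkcz*, differences were not detectable.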
